A study of Monodelphis domestica and Mus musculus with 2 samples.

Results

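The genes of oxidative phosphorylation were described in the primary visual cortex (V1) of an opossum and a mouse, by cell subclass and by cortical depth. Members were the features whose symbol, with case ignored, starts with Nduf, Uqcr, Atp5, Sdh followed by a, b, c or d, or Cox4 to Cox8, together with the mitochondrially encoded mt-Nd, mt-Co, mt-Atp and mt-Cytb genes, found in more than 8 cells of the section. Symbols that contain "-ps", which marks pseudogenes, were left out. The rule found 53 of 30613 opossum features and 112 of 61317 mouse features. The 53 opossum members were nuclear-encoded, and comprised 25 features of complex I, 4 of complex II, 4 of complex III, 6 of complex IV, 7 of complex V and 7 assembly factors. The mouse set held 99 nuclear-encoded members, of which 40 were in complex I, 4 in complex II, 8 in complex III, 17 in complex IV and 18 in complex V, with 12 assembly factors, and 13 mitochondrially encoded members. No opossum symbol carried the mt- prefix, so comparisons of mitochondrially encoded genes were made within the mouse alone.

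Oxidative phosphorylation is the set of reactions by which mitochondria make most of the ATP of a neuron. Complex I (NADH dehydrogenase) and complex II (succinate dehydrogenase) pass electrons to ubiquinone, complex III passes them to cytochrome c, and complex IV (cytochrome c oxidase) passes them to oxygen. Protons pumped along the way drive complex V, the ATP synthase. Most subunits are encoded in the nucleus and imported, while a small core is encoded by the mitochondrial genome. In the cortex, cytochrome oxidase staining has long been used to mark layers and compartments, and fast-spiking interneurons that make parvalbumin are known for many mitochondria.

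The data were Stereo-seq counts of unique molecular identifiers (UMIs, tags that count captured RNA molecules) per gene and segmented cell. There was 1 section, 10 µm thick, of each species, from 1 adult male gray short-tailed opossum (Monodelphis domestica) of about 6 months and 1 adult wild-type male C57BL/6J mouse of about P40. Neither animal was treated, tissue was flash-frozen in coronal slices, and the RNA integrity measured in the blocks was lower for the opossum than for the mouse. With 1 animal and 1 section per species there was no biological replicate, so the values below carry no test and no p-value. The intervals are exact 95% Poisson or conditional intervals on summed counts, which cover counting error only, and the values of the V1 regions of a section (3 in the opossum, 4 in the mouse) show the spread within 1 animal.

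The opossum V1 regions held 4806 cells that passed the authors' column filter, with 6933475 UMIs and a median of 1326 UMIs per cell (1048 to 1503 over regions). The mouse V1 regions held 9127 such cells, 12522687 UMIs and a median of 1305 UMIs per cell (1259 to 1343). Subclass labels were the authors' nearest-neighbor labels, and 242 opossum cells and 1474 mouse cells had none. The labels rest on the same transcriptomes, so that a contrast between subclasses is a description. The separately deposited class label disagreed with the subclass for some cells. Of the Pvalb cells, 142 of 354 opossum cells carried the class glutamatergic, against 21 of 174 mouse cells. The same class was carried by 331 of 565 opossum oligodendrocytes, 133 of 495 astrocytes, 70 of 100 oligodendrocyte precursors and 50 of 65 endothelial cells, against 104 of 588, 15 of 447, 45 of 187 and 40 of 255 in the mouse. A segmented cell can hold RNA of its neighbors, and a smaller share of a cell type and less RNA of that type cannot be told apart in such a cell. No cell names were shared between the sections.

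Levels are UMIs of the members per 10000 UMIs of all features. Over all V1 cells the nuclear-encoded members summed to 144 per 10000 in the opossum (95% interval 143 to 145), or 1.44% of UMIs, with 137 to 158 over the 3 regions. In the mouse the 99 nuclear-encoded members summed to 237 per 10000 (236 to 238), or 2.37%, with 229 to 249 over the 4 regions. The mouse mitochondrially encoded members added 80.9 per 10000 (80.4 to 81.4). The sums of the 2 species rest on different numbers of features and are compared over matched genes further down. Of the members, 3 in the opossum and 8 nuclear-encoded ones in the mouse had under 100 UMIs in V1.

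Among opossum subclasses with at least 25 cells, Pvalb interneurons had the highest summed nuclear-encoded level and IT_B intratelencephalic neurons the lowest. Pvalb cells had 174 per 10000 (170 to 177), with 162, 176 and 198 in the 3 regions. IT_A, the largest glutamatergic subclass of the upper layers, had 127 per 10000 (126 to 129), with 123, 126 and 143. The Pvalb level was above that of IT_A in each of the 3 regions. Microglia (167), endothelial cells (165), oligodendrocytes (161) and L5NP near-projecting neurons (161) followed Pvalb, and the intervals of microglia, endothelial and L5NP cells overlapped each other. L5PT pyramidal tract neurons had 155, astrocytes 152, L6CT corticothalamic neurons 144, Vip interneurons 121 and IT_B 115 per 10000. Microglia (32 cells), Vip (38), L5NP (39) and endothelial cells (65) were few, so their ranks beside Pvalb and IT_B are uncertain.

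In the mouse the order began with L5PT (260 per 10000), Pvalb (259), L6b (255) and microglia (254), whose intervals overlapped. The lowest levels were those of Vip interneurons (209), L4 (218) and L2/3 neurons (219). L2/3 cells ranged from 211 to 237 over the 4 regions and Pvalb cells from 241 to 286, so every Pvalb value lay above every L2/3 value. The spread from the lowest to the highest subclass was wider in the opossum than in the mouse, at 115 to 174 against 209 to 260, and this difference between the species was not tested.

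**Figure D1:**
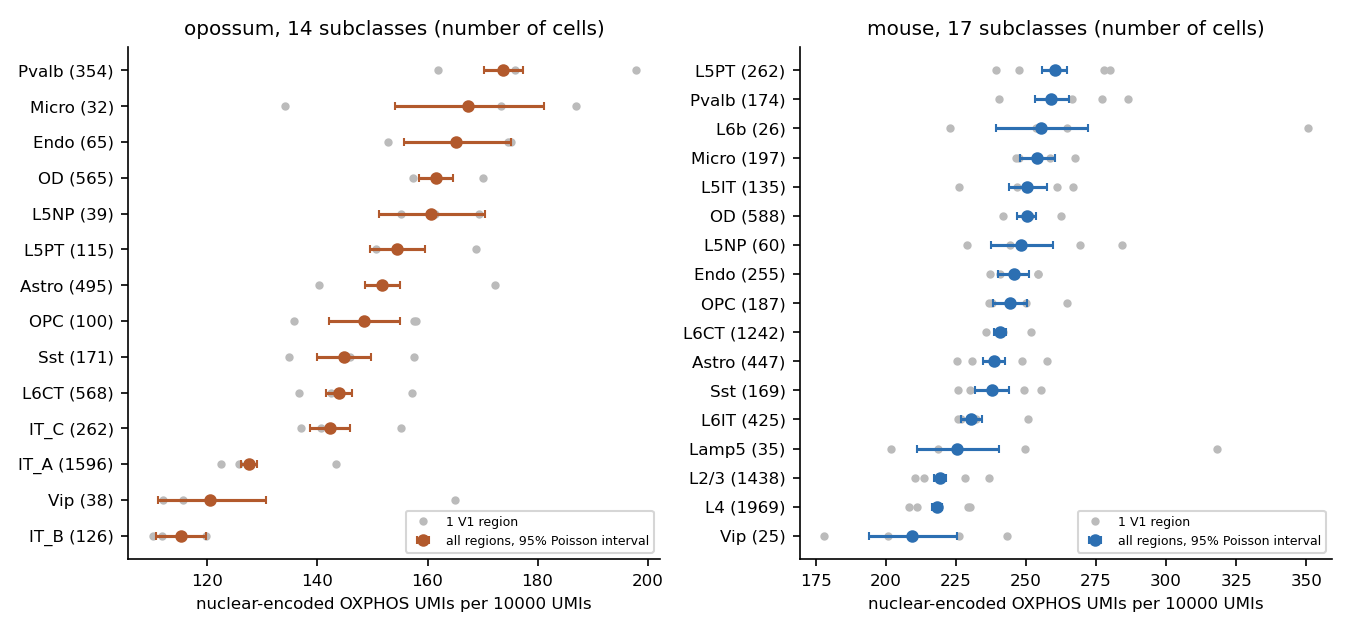
Summed nuclear-encoded level (x axis, UMIs per 10000 UMIs) of each subclass with at least 25 V1 cells, opossum on the left and mouse on the right. Colored points are all regions together with their 95% Poisson interval, gray points are single V1 regions, and the number of cells is given with each name. Opossum Pvalb (174) and mouse L5PT (260) stand at the top, opossum IT_B (115) and mouse Vip (209) at the bottom.

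The comparison of Pvalb with IT_A cells asked how far a fast-spiking interneuron subclass differs from the main upper-layer excitatory subclass of the opossum. The summed level was 1.36 times as high in Pvalb (95% interval 1.33 to 1.39), and 1.32 to 1.40 times over the 3 regions. Each complex was higher in Pvalb: complex I by 1.34 times, complex II by 1.33, complex III by 1.46, complex IV by 1.36, complex V by 1.40 and the assembly factors by 1.21. All 50 members with at least 50 UMIs in the 2 subclasses together had a fold above 1. Their median fold was 1.35, against 0.995 over all features tested, of which 49.4% lay above 1. A feature was counted as past the fold where it differed by more than 1.5 times, and 11 members were, all of them higher in Pvalb, beside 11.2% of all features higher and 15.2% lower. In 33 of the 50 the direction was the same in each region. That share was not computed over all features, so the count describes the members alone.

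Among the members of that contrast with 1 direction in every region, ATP5F1C, the gamma subunit that forms the turning shaft of the ATP synthase, had the highest fold. It had 2.67 UMIs per 10000 in Pvalb and 1.47 in IT_A, a fold of 1.81 (1.48 to 2.20), with 1.63, 2.16 and 1.52 in the 3 regions. NDUFA8, an accessory subunit of complex I, had 3.89 against 2.20 per 10000, a fold of 1.77 (1.5 to 2.08), with 2.02, 1.75 and 1.43 over regions. ATP5PF, coupling factor 6 of the ATP synthase stalk, had 3.17 against 1.96, a fold of 1.62 (1.35 to 1.93), with 2.25, 1.33 and 1.16. Each of these genes was higher in Pvalb in all 3 regions, but by amounts that differed between regions by more than the 3 genes differed from each other.

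The abundant subunits showed the same direction. NDUFA4, named after complex I and since assigned to cytochrome c oxidase, had 14.0 against 9.21 per 10000 in Pvalb and IT_A, a fold of 1.52 (1.40 to 1.65). COX4I1, the main form of complex IV subunit 4, had 10.9 against 7.66, with folds of 1.43, 1.37 and 1.5 in the 3 regions. UQCRB, which binds ubiquinone in complex III, had 4.65 against 3.10, a fold of 1.5 (1.30 to 1.73). SDHA, the flavoprotein that oxidizes succinate in complex II, had 1.49 against 0.971, a fold of 1.54 (1.18 to 1.99). COX6A1, another complex IV subunit, is an example of a member whose regions disagreed, with folds of 1.06, 1.63 and 0.979 around a pooled value of 1.31.

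The Pvalb contrast was smaller in the mouse, over 99 nuclear-encoded members against 53 in the opossum, and this difference between the species was not tested. The summed nuclear-encoded level was 1.18 times as high in Pvalb as in L2/3 cells (1.15 to 1.21), and 1.14 to 1.25 times over the 4 regions. By complex the folds were 1.17 for complex I, 1.30 for complex II, 1.26 for complex III, 1.13 for complex IV, 1.19 for complex V and 1.33 for the assembly factors. Of 84 nuclear-encoded members tested, 71 lay above 1, with a median of 1.16 against 0.983 over all features. Past the fold, 11 of the 84 were higher and 3 lower, beside 11.2% of all features higher and 16.7% lower. In every region, 23 members were higher in Pvalb and 2 lower, counts that were not made over all features and describe the members alone.

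In mouse Pvalb cells the highest folds that held in every region were those of Ndufs6, Atp5f1 and Ndufab1. Ndufs6, a subunit of complex I, had 2.87 against 1.58 per 10000, a fold of 1.82 (1.40 to 2.34), with 1.64, 3.44, 1.08 and 1.91 in the 4 regions. Atp5f1, the peripheral stalk subunit b of ATP synthase, had 4.60 against 2.70, with 1.41, 2.65, 1.96 and 1.40. Ndufab1, the mitochondrial acyl carrier protein that is also a complex I subunit, had 2.06 against 1.26, a fold of 1.64 (1.20 to 2.20). Ndufs3, a core subunit of complex I, went the other way with 0.515 against 1.02 per 10000, a fold of 0.502 (0.270 to 0.864) that rests on 14 UMIs in Pvalb and 189 in L2/3. The abundant complex IV genes were close to level in this contrast, with folds of 0.927 for Cox4i1 (0.777 to 1.10) and 1.01 for Cox8a (0.870 to 1.18). Among the catalytic and membrane subunits of complex II, Sdha had a fold of 1.18, Sdhb 1.39, Sdhc 1.38 and Sdhd 1.18.

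**Figure D2:**
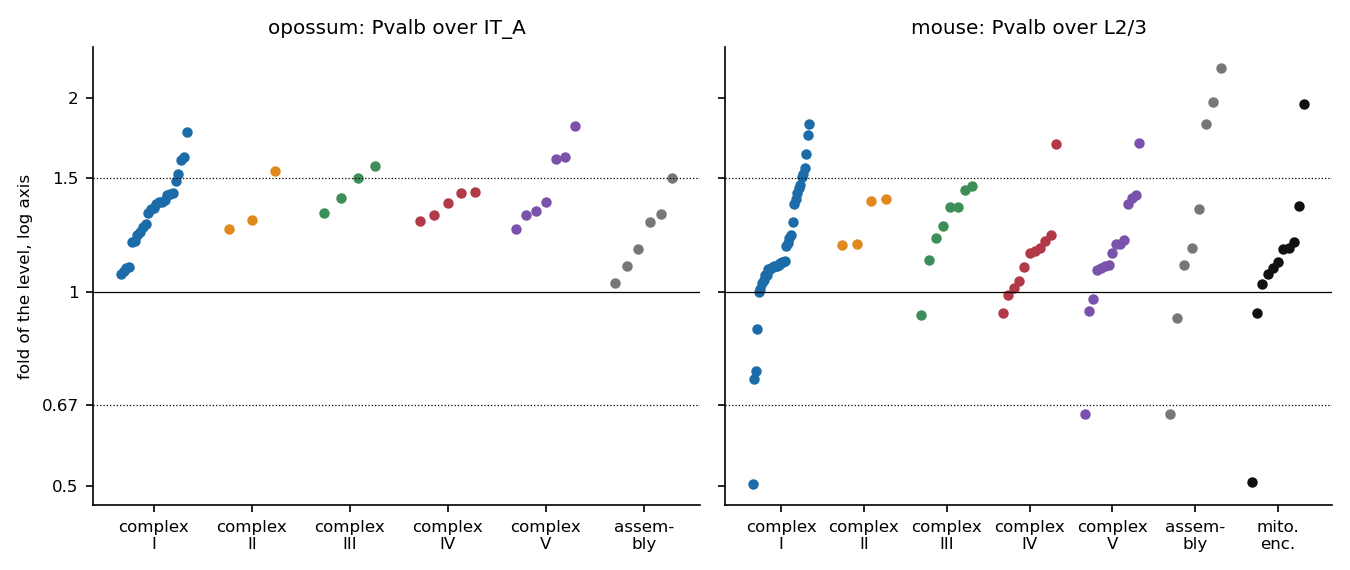
Fold of each member in Pvalb over the upper-layer reference (y axis, logarithmic), IT_A in the opossum (left) and L2/3 in the mouse (right), for members with at least 50 UMIs in the 2 subclasses together, grouped by complex along the x axis. Solid lines mark a fold of 1 and dotted lines a fold of 1.5 in either direction. All 50 opossum points lie above 1, while in the mouse 71 of 84 nuclear-encoded points do.

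The identity of Pvalb cells and the RNA around them bear on these folds. The 2 Pvalb markers measured in the opossum, KCNC1 and ERBB4, of 4 listed, summed to 25.7 per 10000 in Pvalb and 2.64 in IT_A cells, and the 3 GABAergic markers to 22.5 and 4.24. The mouse values of the 4 Pvalb markers were 31.1 and 4.42 in Pvalb and L2/3, and those of the GABAergic markers 7.58 and 3.10. Oligodendrocyte markers (4 of 5 measured in the opossum) were also higher, with 32.9 in opossum Pvalb against 24.2 in IT_A, and 20.8 in mouse Pvalb (5 of 5 measured) against 16.4 in L2/3. The part of that signal in the members' folds was not tested. Restricted to cells whose class label matched the subclass, the opossum fold was 1.38.

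The L5PT neurons, which project to subcortical targets, were compared with the same references. Opossum L5PT cells had 155 per 10000 against 127 in IT_A, a fold of 1.21 (1.17 to 1.25), with 1.23, 1.23 and 1.18 in the regions. Of 50 members tested, 45 lay above 1, with a median of 1.25 against 0.973 over all features. Past the fold, 5 members were higher (NDUFC1, SDHA, NDUFA2, ATP5PF and NDUFB4) and 2 lower (NDUFAF1 and NDUFA3), beside 13.8% of all features higher and 20.9% lower. NDUFC1 and NDUFB4, accessory subunits of complex I, had 2.33 against 1.35 and 5.98 against 3.87 per 10000. For NDUFB4 the folds of 1.49, 1.55 and 1.73 in the 3 regions lay close together.

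Mouse L5PT cells had a nuclear-encoded level of 260 against 219 per 10000 in L2/3, a fold of 1.19 (1.16 to 1.21), and 1.14 to 1.23 over regions. Of 84 members tested, 71 lay above 1, with a median of 1.16 against 0.989 over all features, and 4 were higher and 1 lower past the fold, beside 9.00% and 12.9% of all features. Uqcrfs1, the Rieske iron-sulfur protein of complex III, had 3.89 against 2.27 per 10000, a fold of 1.72 (1.44 to 2.04), with 1.45, 1.59, 2.56 and 1.40 in the 4 regions. Ndufa11, a membrane subunit of complex I, had 1.70 against 1.09, and Sdhc, which anchors complex II in the membrane, 3.15 against 2.12. Atp5b, the catalytic beta subunit of ATP synthase, had 12.4 against 9.57, a fold of 1.30 (1.18 to 1.42) that was above 1 in each region. L5PT markers checked the label: the 3 measured of 4 listed summed to 4.83 in opossum L5PT against 0.795 in IT_A, and to 1.96 in mouse L5PT against 0.623 in L2/3.

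L6CT neurons were moderately above the upper-layer reference over all depths, but not when both were compared within 5 depth bands, where the fold was 0.938 in the opossum and 0.986 in the mouse. Those values rest mainly on the deepest band, where the reference was 36 opossum IT_A cells (163 per 10000) or 34 mouse L2/3 cells. Over all depths the opossum fold was 1.13 (1.11 to 1.15), with 1.10 to 1.13 over regions, and 40 of 50 members tested lay above 1 with a median of 1.14 against 1.01 over all features. The complex I assembly factor NDUFAF5 was the 1 member past the fold, at 0.451 against 0.279 per 10000, beside 10.1% of all features higher and 12.3% lower. SDHAF4 (2.88 against 2.03 per 10000), NDUFB7 (2.56 against 1.84) and UQCRB (4.29 against 3.10) had the highest folds that held in each region, and NDUFC2 the lowest, at 0.795 (0.658 to 0.956). In the mouse the fold was 1.10, with 1.02 to 1.12 over regions. Sdhaf4, Ndufaf1 and Atp5s were past the fold, 3 of 88 nuclear-encoded members tested, beside 6.59% of all features higher and 7.80% lower. The median over those members was 1.08 against 1.01 over all features. Atp5e, the epsilon subunit of ATP synthase, had 3.57 against 2.44 per 10000, a fold of 1.46 (1.30 to 1.65), with 1.41, 1.54, 1.56 and 1.42 in the 4 regions. Uqcrc2, a core protein of complex III, had 3.10 against 2.17, and Ndufa12, an accessory subunit of complex I, 1.16 against 1.56. The named ATP synthase and complex III genes thus differed in direction from Ndufa12 within the same contrast.

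The middle-layer subclasses IT_B in the opossum and L4 in the mouse did not stand above the upper layers. Opossum IT_B cells had 0.903 times the level of IT_A (0.866 to 0.941), with 0.779 to 0.952 over regions, and 14 of 50 members lay above 1, with a median of 0.893 against 0.949 over all features. Past the fold, 7 members were lower and 1 higher, beside 21.4% and 15.1% of all features. ATP5MJ, a small ATP synthase subunit, had 0.990 against 2.02 per 10000, a fold of 0.491 (0.301 to 0.759). ATP5PB, the stalk subunit b that corresponds to mouse Atp5f1, had 1.60 against 2.84, with 0.656, 0.418 and 0.768 in the regions. NDUFA1, a small complex I subunit, had 0.519 against 0.850. NDUFS4 was higher in IT_B, at 2.12 against 1.51 per 10000, as was ATP5F1C at 1.98 against 1.47. Over the opossum subclasses with at least 200000 UMIs, IT_B was the lowest for 32 of the 50 members considered and Pvalb the highest for 19. The same share over all features was not computed, so these counts describe the members alone. Some of the lowest IT_B values rest on few UMIs, with 4 for NDUFAF1 and 11 for NDUFA1. UMIs per cell differed between the subclasses too. In the middle depth band, which held 82 of 126 IT_B cells, the median was 1727.5 UMIs in IT_B and 1132 in IT_A. The levels there were 117 and 132 per 10000. IT_A cells of all depths were split into 4 equal groups by UMIs. The group with the most (median 2367) had 115 per 10000, and the next (median 1631.5) had 132. The part of UMIs per cell in the IT_B fold was not tested.

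The direction of the IT_B contrast depended on how firmly the cells were labelled. With cells labelled in the first of the 3 rounds of the authors' assignment, which kept 30 of 126 IT_B cells, the IT_B level was 1.04 times that of IT_A. Mouse L4 cells had 0.996 times the nuclear-encoded level of L2/3 (0.983 to 1.01), and 0.971 to 1.01 over regions. Of 89 nuclear-encoded members tested, 45 lay above 1, with a median of 1.00 against 1.01 over all features, and 2 were higher past the fold (Ndufaf1 and Cox6a2), beside 5.27% of all features higher and 4.55% lower. Ndufs4 was lower in L4, at 1.12 against 1.39 per 10000, as was Atp5g1, which encodes the ring subunit c of ATP synthase, at 1.51 against 1.86. Ndufs8, an iron-sulfur subunit of complex I, was higher in L4, at 0.742 against 0.634 per 10000, a fold of 1.17 (0.924 to 1.49).

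Neuronal subclasses as a whole lay below the nonneuronal ones in both species. The opossum fold of neuronal over nonneuronal cells was 0.886 (0.873 to 0.899), with 0.877 to 0.897 over regions. Many of these opossum nonneuronal cells carried the class glutamatergic, and the fold over cells whose class matched the subclass was 0.911. Of 51 members tested, 6 lay above 1, and the median was 0.885 against 0.988 over all features. The 1 member past the fold, NDUFAF7, was higher in neurons with 0.100 against 0.0459 per 10000 on 58 UMIs in all, beside 12.8% of all features higher and 9.93% lower. The assembly factors NDUFAF3 (0.395 against 0.532 per 10000) and SDHAF4 (2.26 against 2.94), and the complex I subunit NDUFA10 (1.97 against 2.57), had the lowest folds that held in each region. In the mouse the nuclear-encoded fold was 0.935 (0.926 to 0.944), with 0.920 to 0.963 over regions, and 18 of 92 members tested lay above 1. The median there was 0.942 against 0.985. Cox6a2 was past the fold and higher in neurons, the 1 of 92 to be so, beside 6.28% of all features higher and 6.17% lower. Sdhd, an anchor subunit of complex II, was also higher in neurons in each of the 4 regions, at 0.890 against 0.760 per 10000, while Ndufaf3 was lower at 0.508 against 0.688.

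The summed level was higher in deep than in upper bands of V1 in both species, by a different course. Depth was scaled from 0 at the upper to 1 at the lower edge of each V1 region. In the opossum it was 127 per 10000 in the uppermost of 10 depth bands, 146 in the sixth and seventh, 165 in the eighth and 147 in the last. The eighth band was the highest in each of the 3 regions. The deepest over the uppermost of 5 depth bands gave a fold of 1.20 (1.18 to 1.23), with 1.09 to 1.25 over regions. In the mouse the nuclear-encoded level was lowest, at 210, in the fourth of 10 bands and highest, at 266, in the sixth. The fold between the outer of 5 bands was 1.09 (1.08 to 1.11), with 1.05 to 1.14 over regions. The fourth band was the lowest in each of the 4 regions, and the highest was the sixth in 2 regions and the seventh in the other two. Nuclear-encoded complex IV of the mouse had 53.0, 48.5, 55.4, 58.7 and 54.8 per 10000 from the uppermost to the deepest of 5 bands, against 78.8, 77.4, 87.0, 87.6 and 84.8 for complex I.

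**Figure D3:**
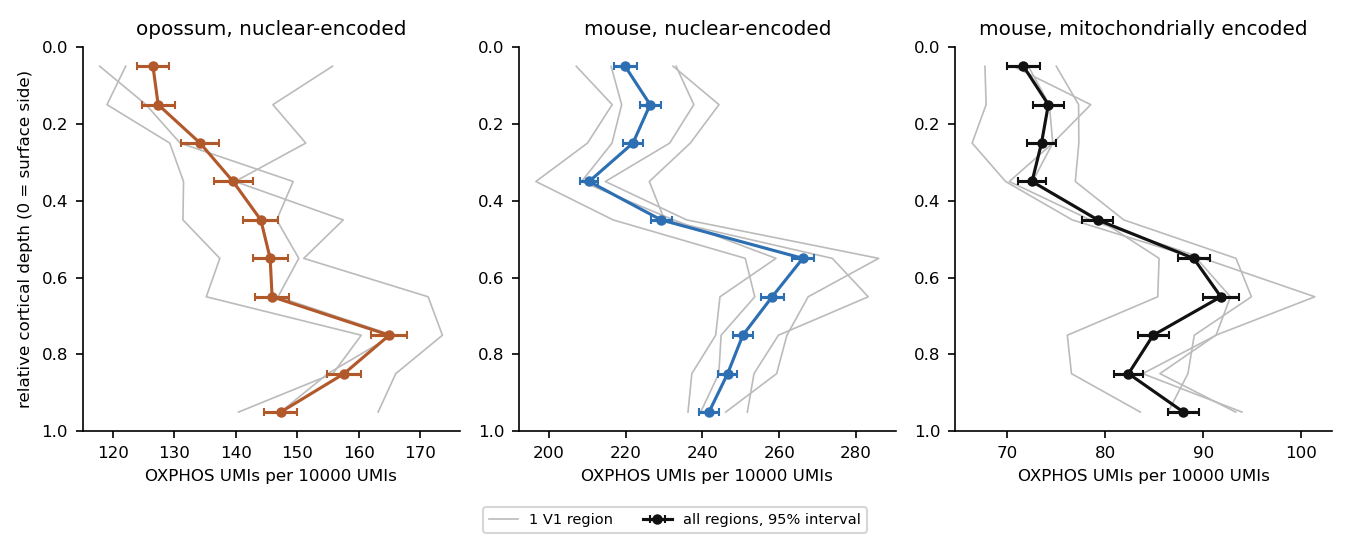
Summed level of the members (x axes, UMIs per 10000 UMIs) in 10 bands of relative cortical depth (y axis, 0 at the surface side), for opossum nuclear-encoded, mouse nuclear-encoded and mouse mitochondrially encoded members. Colored or black points are all regions with their 95% interval and gray lines are single V1 regions. The opossum profile is highest at 165 in the eighth band and the mouse nuclear-encoded profile at 266 in the sixth.

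In the depth contrast of the opossum, 43 of 50 members tested lay above 1, with a median of 1.21 against 1.02 over all features. Past the fold, 6 were higher in the deepest of 5 bands (NDUFA3, NDUFA2, ATP5F1C, SDHAF4, NDUFAF2 and UQCRB) and 0 lower, beside 11.7% of all features higher and 11.2% lower. UQCRB had 4.29 against 2.78 per 10000, a fold of 1.54 (1.36 to 1.75), with 1.65, 1.36 and 1.67 in the regions. SDHAF4, which helps assemble complex II, had 2.99 against 1.94, with 1.38, 1.74 and 1.42. NDUFA2, an accessory subunit of complex I, had 1.02 against 0.592. NDUFC2 (1.66 against 1.94) and SDHB, the iron-sulfur subunit of complex II (1.21 against 1.37), were lower in depth in each region. By complex, assembly factors (1.37) and complex III (1.27) had the highest folds and complex II (1.12) the lowest.

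In the mouse 68 of 89 nuclear-encoded members lay above 1 in that contrast, with a median of 1.08 against 1.00. Past the fold, Sdhaf4 was higher, with 0.612 against 0.346 per 10000, and Sdhaf3 and Ndufaf6 were lower, beside 7.12% of all features higher and 8.88% lower. Uqcrc2 (2.84 against 2.13) and Atp5e (3.53 against 2.69) were higher in depth in each region, and Cox8a (7.09 against 7.85) and Ndufs4 (1.19 against 1.42) lower. Complex V had a fold of 1.17 and complex IV one of 1.03. SDHAF4 was thus among the members with the highest depth fold in both sections, at 1.54 and 1.77.

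Inside single subclasses the level was higher in deep bands in some and not in others. Opossum IT_A cells had 123, 125, 132, 138 and 163 per 10000 from the uppermost to the deepest of 5 bands, and opossum astrocytes 133, 141, 152, 162 and 165. In the mouse L2/3 cells had 211, 218, 245, 248 and 247, and L4 cells 235, 207, 225, 260 and 250. Opossum L6CT cells had 135, 163, 148, 168 and 140, with a fold of cells below over cells above mid-depth of 0.923 (0.863 to 0.989), and IT_C cells had 148, 122, 150, 144 and 135. The same fold was 0.964 (0.899 to 1.03) in opossum Sst and 1.01 (0.928 to 1.09) in IT_B cells. Mouse L6CT cells gave 1.02 (0.984 to 1.05), and 0.986 (0.930 to 1.05) for the mitochondrially encoded members, and mouse L6IT cells had 224, 237, 252, 226 and 232 over the bands. The range within IT_A alone, from 123 to 163, compares with 115 to 174 over the opossum subclasses. Its upper end rests on 36 of 1596 IT_A cells (interval 152 to 175), and the other bands ran from 123 to 138. When Pvalb and IT_A were compared within depth bands the opossum fold was 1.29, and for L5PT it was 1.11. The mouse folds for L5PT and Pvalb within bands were 1.07 and 1.08. Oligodendrocyte markers differed with depth too, from 19.7 per 10000 in the uppermost to 61.7 in the deepest opossum band, and from 16.0 to 41.9 in the mouse. Their part in the depth profile was not tested.

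The level also varied with UMIs per cell in the opossum. Of 4 equal groups of IT_A cells by UMIs, the one with the fewest (median 564) had 145 per 10000, followed by 141, 132 and 115 in the one with the most (median 2367). Mouse L2/3 cells showed a narrower range, with 222, 225, 219 and 215. Among cells with at least 500 UMIs the opossum Pvalb fold was 1.37 and the L5PT fold 1.22.

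The 13 mitochondrially encoded mouse genes showed very unequal counts. UMIs of mt-Cytb, the cytochrome b of complex III, were 29401 in V1, or 23.5 per 10000 (22.0 to 25.2 over regions), and those of the complex I subunits mt-Nd1, mt-Nd4 and mt-Nd2 were 22008, 19567 and 17364. The remaining complex I genes had 2.31 (mt-Nd5), 0.539 (mt-Nd3), 0.409 (mt-Nd6) and 0.0519 per 10000 (mt-Nd4l). The catalytic subunits of complex IV had 3.91 (mt-Co1), 1.59 (mt-Co2) and 0.351 (mt-Co3), and the ATP synthase subunits mt-Atp8 and mt-Atp6 had 0.999 and 0.165. Per kilobase of gene the levels ran from 20.5 for mt-Cytb, 18.4 for mt-Nd1, 13.4 for mt-Nd2 and 11.3 for mt-Nd4 down to 0.242 for mt-Atp6 and 0.175 for mt-Nd4l.

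The nuclear genome holds copies of mitochondrial sequence, and reads that match 2 places equally well are often left out of gene counts. The 3′ end of 6 genes (mt-Co2, mt-Atp8, mt-Atp6, mt-Co3, mt-Nd3 and mt-Nd4l) had an identical copy on chromosome 1 of GRCm39. For 5 genes the copy was inexact, and for mt-Nd1 and mt-Nd4 no copy of the 3′ end was found. A copy was counted if it came within 30 bases of the 3′ end, or within 5 for an identical one. The place of mt-Nd4 depends on that limit. Other parts of mt-Nd4 do have copies: an identical one of 876 bases stops 502 bases before the 3′ end, and an inexact one stops 40 bases before it. The last 30 bases of a gene from each of the first 2 kinds are shown with their nuclear copy, in the direction of the gene and with bases that differ in capitals. The mt-Co3 end lies at chrM:9361-9390 on the plus strand and its copy at chr1:24652269-24652298 on the minus strand. The mt-Cytb end lies at chrM:15259-15288 and its copy at chr4:79923340-79923369, both on the plus strand.
mt-Co3: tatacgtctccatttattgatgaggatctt
mt-Co3 nuclear copy: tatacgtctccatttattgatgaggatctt
mt-Cytb: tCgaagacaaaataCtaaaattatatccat
mt-Cytb nuclear copy: tTgaagacaaaataTtaaaattatatccat

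The 6 genes with an identical copy of the 3′ end held 4629 UMIs in all, the 5 with an inexact copy 55068 and the 2 without a copy of that end 41575. Their median levels per kilobase were 0.999, 2.53 and 14.9. The range was 0.175 to 4.90 for the identical kind and 11.3 to 18.4 for the genes without a copy of that end. Both ranges overlapped that of the inexact kind. The part of the copies in the unequal counts was not tested. Within the inexact kind the levels ran from 0.788 for mt-Nd6, the 1 gene encoded on the other strand, to 20.5 for mt-Cytb. For mt-Co1, whose gene spans 1545 bases, a copy with 97.6% identity on chromosome 2 overlaps the feature Gm13340, which is no member and held 2106 UMIs, against 4894 for mt-Co1 itself. Whether reads of mt-Co1 were counted there was not tested.

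**Figure D4:**
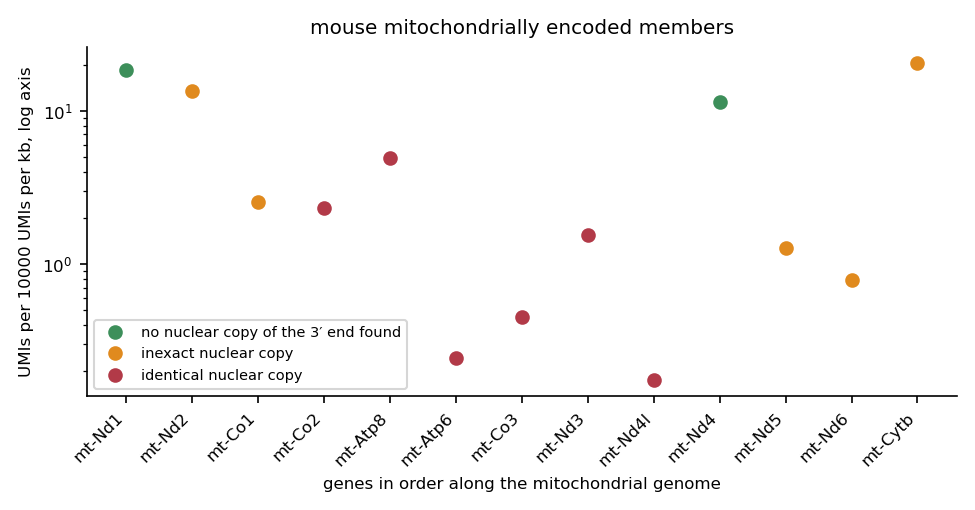
Level of each mitochondrially encoded mouse member (y axis, UMIs per 10000 UMIs per kilobase of gene, logarithmic) in order along the mitochondrial genome (x axis), colored by whether the 3′ end of the gene has an identical, an inexact or no nuclear copy. The points run from 0.175 for mt-Nd4l to 20.5 for mt-Cytb, and both genes without a copy of the 3′ end lie above 10.

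Across subclasses the mitochondrially encoded level was highest in oligodendrocytes (96.2 per 10000), L5NP neurons (92.4) and endothelial cells (91.0), and lowest in L4 (73.4), L2/3 (72.2) and Lamp5 cells (72.1). Neuronal over nonneuronal cells gave 0.841, with 0.792 to 0.882 over regions. All 13 members lay below 1 in that contrast, with a median of 0.845 against 0.985 over all features, and 1 was past the fold and lower in neurons (mt-Nd4l, on 55 UMIs), beside 6.28% of all features higher and 6.17% lower. For mt-Cytb the values were 22.2 in neuronal and 26.9 in nonneuronal cells, and for mt-Co1 3.65 and 4.43. Pvalb and L5PT cells were 1.12 and 1.15 times as high as L2/3, and L4 1.02 times. Of 11 members tested in Pvalb, mt-Nd6 was higher and mt-Co3 lower past the fold, beside 11.2% of all features higher and 16.7% lower. Compared within depth bands, the Pvalb, L5PT and L6CT folds were 0.993, 0.980 and 0.986.

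The mitochondrially encoded level was 1.16 times as high in the deepest as in the uppermost of 5 bands (1.09 to 1.30 over regions), and all 12 members tested lay above 1, beside 50.3% of all features. Of these members 0 were past the fold, beside 7.12% of all features higher and 8.88% lower. mt-Cytb had 25.1 against 20.8 per 10000, with folds of 1.08, 1.20, 1.52 and 1.18 in the 4 regions, and mt-Nd2 had 14.7 against 12.3. The ratio of mitochondrially to nuclear-encoded UMIs was 0.341 over V1 (0.338 to 0.343), with 0.324 to 0.369 over regions. It was 0.385 in oligodendrocytes and 0.312 in Pvalb cells, 0.332 in neuronal and 0.369 in nonneuronal subclasses, and 0.327 in the uppermost and 0.348 in the deepest of 5 bands. From Pvalb cells to oligodendrocytes the ratio covered a wider range than over the 4 regions.

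Several subunits of complexes I, IV and V exist as alternative forms, of which some are known from muscle or lung. In mouse V1 the common forms had 8182 UMIs for Cox4i1, 3871 for Cox6a1, 5909 for Cox6b1, 4131 for Cox7a2, 9339 for Cox8a, 12044 for Ndufa4 and 7468 for Atp5g3. The alternative forms had 18 for Cox4i2, 160 for Cox6a2, 11 for Cox6b2, 53 for Cox7a1, 9 for Cox8b, 12 for Ndufa4l2 and 83 for Atp5g2. The third subunit c gene, Atp5g1, had 2308, and Cox7a2l, linked to supercomplexes, had 1589. Cox6a2 was the 1 alternative form with enough UMIs to compare subclasses. It is encoded at chr7:127804607-127805559 on the minus strand of GRCm39 and known as the heart and muscle form of subunit 6a. Its level was 0.176 per 10000 in L4 on 44 UMIs and 0.0705 in L2/3 on 13, a fold of 2.49 (1.32 to 5.04), with 3.47, 2.33, 1.41 and 3.37 in the 4 regions. Pvalb and Sst interneurons had 0.221 and 0.247 per 10000 on 6 UMIs each, too few to compare.

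Between species, 50 members were matched by symbol, with older mouse symbols updated. Genome, annotation, RNA integrity and age differ along with species, and cannot be told apart here. Their summed level, per 10000 UMIs without mitochondrial features, was 134 in the opossum (127 to 147 over regions) and 133 in the mouse (128 to 140), a fold of 1.01 (1.00 to 1.02). With the UMIs of shared symbols alone as the denominator the fold was 0.879, a change of scale that applies to each matched gene and complex alike. The sum hid differences in both directions: 25 members were higher in the opossum and 25 lower, beside 56.8% of all matched genes higher. Past the fold, 11 were higher and 13 lower, beside 38.3% of all matched genes higher and 27.1% lower. The median fold was 1.03 against 1.17 over all matched genes. By complex the opossum over mouse folds were 0.996 for complex I, 0.436 for complex II, 1.09 for complex III, 1.30 for complex IV, 0.737 for complex V and 1.64 for the assembly factors.

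The low value of complex II came mostly from SDHC and SDHA. SDHC had 41 UMIs in opossum V1, with 0.0690, 0.0534 and 0.0510 per 10000 in the 3 regions, while its mouse counterpart Sdhc, at chr1:170954732-170978223 on the minus strand of GRCm39, had 2.40, a fold of 0.0246 (0.0176 to 0.0335). SDHA had 1.11 against 2.83 and SDHB 1.37 against 2.20, while SDHD had 1.10 against 0.902. These 4 genes encode the subunits of 1 enzyme, and their folds ran in both directions. The next lowest folds were those of COX7A2L (0.0562 against 1.29 per 10000) and NDUFAF7 (0.0851 against 0.669). SDHAF4 (2.43 against 0.473) and NDUFA8 (2.59 against 0.660) were among the highest. COX4I1 (8.55 against 6.66) and NDUFA4 (10.7 against 9.80) were close by comparison.

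**Figure D5:**
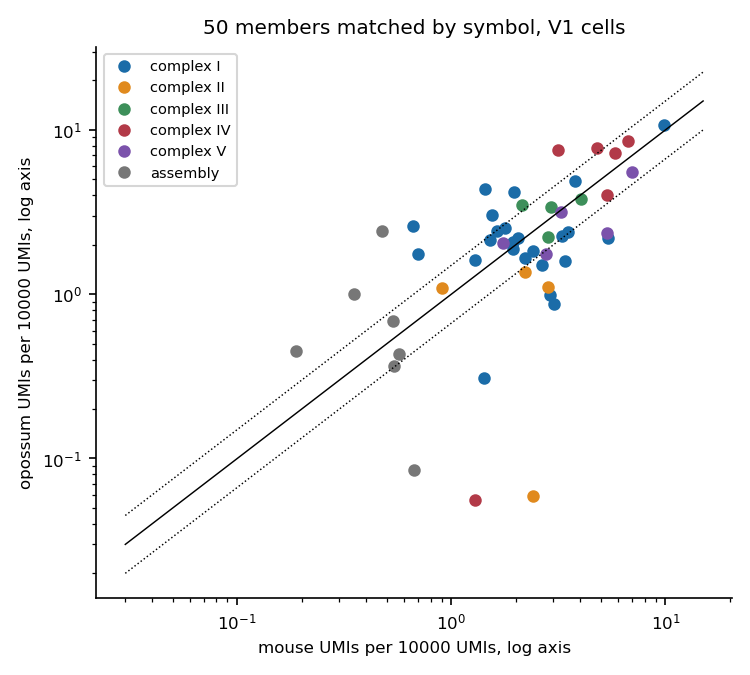
Level of each of the 50 matched members in mouse (x axis) and opossum V1 cells (y axis), in UMIs per 10000 UMIs without mitochondrial features, both axes logarithmic, colored by complex. The solid line marks equal levels and the dotted lines a fold of 1.5 in either direction. SDHC (0.0591 against 2.40) and COX7A2L (0.0562 against 1.29) lie far below the line.

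Genes that feed or serve the respiratory chain were counted in the same contrasts. In opossum Pvalb over IT_A, 4 of 14 tested genes of the tricarboxylic acid cycle and pyruvate entry were higher past the fold. They were PDHB, MDH1, PC and IDH2, and the list had a median of 1.45. So were 5 of 13 electron carriers and complex factors (ATPAF1, CYC1, COX18, COX20 and COX17), with a median of 1.44. Of 14 carriers and biogenesis genes 3 were higher (PPARGC1A, SLC25A3 and PHB2), with a median of 1.35. In these lists 0 were lower, beside 11.2% of all features higher and 15.2% lower. MDH1, the cytosolic malate dehydrogenase, had a fold of 1.71, and PPARGC1A, a coactivator of mitochondrial biogenesis, one of 2.85. In mouse Pvalb over L2/3 the counts were 2 of 19, 5 of 13 and 5 of 22 higher, with medians of 1.04, 1.34 and 1.17, and Phb2 was lower, beside 11.2% of all features higher and 16.7% lower. The mouse count for the tricarboxylic acid cycle and pyruvate entry was near that share. Ppargc1a had a fold of 1.52 there and of 2.44 in L5PT over L2/3. In L5PT the opossum medians of the 3 lists were 1.45, 1.40 and 1.29 and the mouse medians 1.21, 1.08 and 1.18. In the depth contrast they were 1.31, 1.17 and 1.11 for the opossum and 1.10, 0.982 and 1.09 for the mouse. In L6CT they were 1.18, 1.13 and 1.23 for the opossum and 1.08, 1.23 and 1.10 for the mouse, in IT_B 0.956, 0.930 and 1.03, and in L4 1.02, 1.17 and 1.02. In neuronal over nonneuronal cells they lay between 0.896 and 0.963 in both species. MDH1 had a depth fold of 1.83 in the opossum, with 11.7 against 6.35 per 10000.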

How the data were processed

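The authors processed the Stereo-seq reads with the vendor's analysis workflow, used a custom opossum genome whose gene models were lengthened at the 3′ end and the mouse build GRCm39, and deposited unnormalized UMI counts per gene and segmented cell with V1 regions, filters and labels. Subclass labels came from nearest neighbors in their single-nucleus data over 3 rounds. Cells had at least 50 genes and 100 UMIs.

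The members and gene lists were chosen with earlier results of these data known. V1 cells that passed the column filter were used, and counts were summed per subclass, region or depth band and divided by all UMIs. Depth was measured along the smallest rectangle around each V1 region, with the L6CT end as the lower and the IT_A or L2/3 end as the upper one, so that this order is no result. Intervals at 95% were exact Poisson or conditional binomial. Features with at least 50 UMIs on both sides together were tested, a side at 0 was set to 3 counts, and a fold above 1.5 or below its inverse was counted. The fold computation was tested on simulated data. Subclasses under 25 cells were left out. Mouse symbols were updated and positions taken from GENCODE M39, and nuclear copies of mitochondrial genes were searched with blastn 2.17.0 in GRCm39. Of the 112 mouse members, 109 were annotated protein coding and 3 lncRNA, and 16 overlap another feature on the same strand, whose reads cannot be told apart.

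Named with values were the mitochondrially encoded members, the 3 members of each complex with the most UMIs, alternative subunits, Sdha to Sdhd, and the 3 highest and 3 lowest folds of a comparison among members with at least 200 UMIs and 1 direction in every region. One result that this rule takes is not reported here. Members past the fold were named too, also where the rule did not take them, and so were Atp5b by subclass and the 2 genes of the mitochondrial copies, chosen after their values were seen. Lists of the tricarboxylic acid cycle and pyruvate entry, of electron carriers and complex factors, and of carriers and biogenesis were counted beside them. Alternatives were other labels, depth bands, filters, thinning of cells to 300 UMIs, other denominators and leaving out each V1 region. Python 3.11.15 was used with numpy 2.4.6, scipy 1.17.1, pandas 2.3.3, shapely 2.1.2 and matplotlib 3.10.9.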

Additional observations from a re-analysis of the deposited data

Results flagged for a closer look

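Signal was found in features outside the set, above the limit of 3 counts that a count of 0 allows. In the opossum, symbols of mitochondrial genes without the mt- prefix had V1 UMIs, with 7 for ND2, 375 for COX1, 4 for COX2 and 26 for ND6, and these were not taken by the rule. In the mouse, features named as pseudogenes of members had 175 UMIs for Uqcrh-ps1, 164 for Cox7c-ps1, 64 for Ndufab1-ps, 62 for Atp5k-ps2, 21 for Atp5l-ps1, 18 for Atp5l2-ps and 17 for Atp5l-ps2.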

How the results depend on the processing

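The values rest on 1 animal per species, so spread between animals is unknown, and counting sets the precision of single genes. No paired analysis was possible because each species is 1 sample. Of 249 alternative values for 44 results, 169 stayed within the counting interval of the reported value, or within 1.5 times for counts. A further 74 moved beyond that limit and 6 turned direction. Where the interval included 1, as for mouse L4 and opossum over mouse, crossing 1 was not counted as a turn. The spread between regions was not part of this rule. The cause of the moves and turns was not tested, except that stricter limits leave fewer genes. Comparison within 5 depth bands and matching by the symbols in the files were chosen after seeing the data.

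Within depth bands the opossum folds were 1.11 for L5PT, 0.938 for L6CT, 1.29 for Pvalb and 0.910 for neuronal cells. Values for L6CT rest mainly on the deepest band, with 36 IT_A or 34 L2/3 cells as reference. The mouse nuclear-encoded folds were 1.07 for L5PT, 0.986 for L6CT, 0.969 for L4, 1.08 for Pvalb and 0.95 for neuronal cells, and the mitochondrially encoded ones 0.980, 0.986, 0.982, 0.993 and 0.867. With first-round labels the opossum folds were 1.15 for L5PT, 1.04 for IT_B and 1.46 for Pvalb, the mouse nuclear-encoded ones 1.10 for L5PT, 0.964 for L4 and 0.896 for neuronal cells, and the mitochondrially encoded ones 1.09 for L5PT and 0.763 for neuronal cells. As a mean over cells the opossum folds were 1.17 for L5PT, 1.30 for Pvalb and 0.919 for neuronal cells, and the ratio of mitochondrially to nuclear-encoded UMIs was 0.344. With matching class labels the opossum neuronal fold was 0.911. The depth fold between the outermost of 10 bands was 1.16 in the opossum and 1.23 for mitochondrially encoded members, which had 1.13 in cells of glutamatergic class. Opossum over mouse was 0.879 per UMI of shared symbols, 1.03 per UMI of all features, 0.958 for IT_A over L2/3 and 1.06 with symbols as in the files, which matched 45 members.

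Leaving out each V1 region in turn gave 0.861 to 0.935 for opossum IT_B, 1.17 to 1.24 for opossum depth, 1.08 to 1.12 for mouse L6CT and 1.16 to 1.22 for mouse Pvalb. Mitochondrially encoded folds were 0.992 to 1.03 for L4, 0.828 to 0.856 for neuronal cells and 1.13 to 1.21 for depth. The mitochondrial to nuclear ratio was 0.333 to 0.346, and opossum over mouse 0.984 to 1.04.

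At a fold of 2 the opossum members counted were 0 up and 0 down in L5PT, 0 up in L6CT, Pvalb and depth, and 0 up and 2 down in IT_B. In the mouse they were 1 up in L5PT, L6CT and L4, 1 up and 0 down in Pvalb, and 0 up and 0 down in neuronal cells and depth. With at least 200 UMIs there were 0 down in opossum L5PT, 0 up in opossum L6CT, IT_B and neuronal cells, 0 down in mouse L5PT, 0 up in mouse L6CT and L4, 7 up and 1 down in mouse Pvalb, 0 up and 0 down in mouse neuronal cells and 0 down with mouse depth. Without mitochondrially encoded UMIs in the denominator 1 member was down with mouse depth.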
